A study of Mus musculus with 8 samples.

Results

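The transcripts described here are 90 noncoding RefSeq records that were well measured in mouse induced pluripotent stem cells (iPSCs). They were chosen by their measured raw reads: a record whose identifier begins with NR_, the RefSeq prefix for noncoding transcripts, was taken if it had at least 50 reads in each of 8 libraries. Of 1867 such records 135 reached that minimum, and the deposited table holds 27052 records in all. From the 135, the rule left out 10 records linked to the X or Y chromosome, 6 of imprinted genes and 1 by name, where *Peg13* and *Gnasas1* were counted as imprinted although the rule does not list them. A further 28 were set aside because the annotation used gave no symbol or chromosome for them. The rule's exclusions could therefore not be checked for these, and they are not ranked among the members. The 90 members carry 89 gene symbols, since *Tug1* has 2 records. They fall into 16 host genes of small RNAs, 34 other long noncoding RNAs, 30 pseudogenes, 5 noncoding records of protein-coding genes, 4 genes of structured RNAs and 1 antisense RNA.

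The libraries came from 4 Ctrl clones (33, 34, 41 and 43) and 4 TKO clones (35, 37, 47 and 48). TKO cells are homozygous for mutations of *Miwi*, *Mili* and *Miwi2*, the mouse genes for PIWI proteins: almost the whole *Miwi* reading frame is replaced by GFP, part of *Mili* is deleted and *Miwi2* carries in-frame stop codons. The study's methods give the Ctrl cells as triple heterozygous littermates, while its legends allow wild type or heterozygous ones. Both genotypes carry the *Oct4-GFP* reporter on a mixed C57BL/6-s129 background, and both arose from embryonic fibroblasts that received c-MYC, KLF4, SOX2 and OCT4 by retrovirus. Each library is 1 clone, colonies were picked on fibroblast feeders, and the labels do not say which embryo a clone came from. The clone numbers fall in the thirties (Ctrl 33 and 34, TKO 35 and 37) or the forties (Ctrl 41 and 43, TKO 47 and 48), and these sets are called clone series without knowing what the numbers stand for. The p-values take the 8 clones as independent.

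Total reads ran from 8983203 to 24688324 in the Ctrl and from 24593995 to 52457455 in the TKO libraries, and Ctrl 33, the shallowest, held the lowest raw count of 86 of the 90 members. Values below are counts divided by the median-ratio size factor of each library (normalized counts), and changes are log2 ratios with their standard error (SE). The *Miwi* record had 8.13 to 28.8 normalized in Ctrl and 2.41 to 4.53 in TKO clones. The *Mili* record had 758 to 1028 in Ctrl and 3844 to 10085 in TKO clones, and the *Miwi2* record 487 to 769 and 936 to 2862, so for these alleles a transcript remained and the counts do not check the loss of the protein. Of 10 listed markers of pluripotent cells 9 were tested, and the *Esrrb* record had too few reads to be tested. Among the tested markers, *Pou5f1* (15866 to 28971) and *Nanog* (7436 to 14707) were high in every clone. *Pou5f1* fell in TKO clones (-0.61, edgeR adjusted p = 0.038), the 1 called with genotype of the 9. The paper, whose calls needed a 2.5-fold change, counts its product among reprogramming factors that the mutations left unaffected. That factor was also delivered by retrovirus, and whether reads from the virus added to the *Pou5f1* count was not tested. Of 3 germ cell markers none was called, and of 3 neural markers *Pax6* was lower in TKO clones (-0.97, adjusted p = 0.0361, with the series in the model) and *Tubb3* higher in the forties (1.03, adjusted p = 0.0268). The summed level of 10 fibroblast markers was lowest in TKO 35 and TKO 37 (94300 and 82201) and lay between 116265 and 190851 in the other clones. *Fn1* made up most of this sum (56762 in TKO 35 and 46941 in TKO 37). Among the markers only *Col1a1* was not lowest in these clones, with 9277 and 7965 against 5546 in Ctrl 41 and 5079 in Ctrl 43.

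Noncoding genes of these kinds do different work. Host genes such as *Snhg1* and *Gas5* are spliced into an RNA of little coding use, and the small nucleolar RNAs (snoRNAs) that guide chemical modification of ribosomal RNA are cut from their introns. Many such hosts begin with a run of pyrimidines, the mark of 5′ terminal oligopyrimidine transcripts, and are broken down by nonsense-mediated decay. MicroRNA (miRNA) host genes carry miRNA hairpins, which are cropped from the primary transcript, so that a host's read count is not the level of its mature miRNA. Long noncoding RNAs include *Malat1* and *Neat1*, which stay in nuclear speckles and paraspeckles, and *Norad*, which binds PUMILIO proteins in the cytoplasm. Many pseudogenes are copies of coding genes and can share reads with them.

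A selection of the miRNAs of 4 host genes is printed. Each of these genes was called between the series or, for *Mir22hg*, between the genotypes within the thirties. The selection leaves out, for example, miR-199a-3p of *Dnm3os*. For *Mir100hg* the mm9 span held no small RNA annotated under the name of miR-100. Each mature sequence is from RefSeq (GRCm38.p6), 5′ to 3′, with the seed, bases 2 to 8, in capitals.
mmu-miR-17-5p (*Mir17hg*): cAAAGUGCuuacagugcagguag
mmu-miR-20a-5p (*Mir17hg*): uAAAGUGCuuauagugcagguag
mmu-miR-18a-5p (*Mir17hg*): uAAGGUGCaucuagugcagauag
mmu-miR-19a-3p (*Mir17hg*): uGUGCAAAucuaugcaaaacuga
mmu-miR-19b-3p (*Mir17hg*): uGUGCAAAuccaugcaaaacuga
mmu-miR-92a-3p (*Mir17hg*): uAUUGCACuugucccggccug
mmu-miR-199a-5p (*Dnm3os*): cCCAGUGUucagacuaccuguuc
mmu-miR-214-3p (*Dnm3os*): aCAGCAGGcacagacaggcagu
mmu-miR-100-5p (*Mir100hg*): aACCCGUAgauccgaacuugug
mmu-miR-22-3p (*Mir22hg*): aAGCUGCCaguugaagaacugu
Within *Mir17hg*, miR-17-5p and miR-20a-5p share a seed, and so do miR-19a-3p and miR-19b-3p. The counts given below are of the host transcripts, not of these miRNAs.

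The starts of 6 snoRNA host genes, with long and short runs, are shown because a pyrimidine run there is a feature the choice of members did not use. Each line gives 20 bases before and 40 from the RefSeq start (GRCm38.p6), in transcript direction, with the longest run of C and T that overlaps the first 10 transcribed bases in capitals.
Snhg1, chr19:8723467-8723526 (+): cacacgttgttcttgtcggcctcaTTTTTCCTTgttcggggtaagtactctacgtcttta
Snhg7, chr2:26640205-26640264 (-): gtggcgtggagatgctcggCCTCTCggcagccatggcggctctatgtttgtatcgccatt
Snhg8, chr3:123508297-123508356 (-): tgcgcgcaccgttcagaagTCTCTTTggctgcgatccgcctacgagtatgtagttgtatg
Snhg12, chr4:132308658-132308717 (+): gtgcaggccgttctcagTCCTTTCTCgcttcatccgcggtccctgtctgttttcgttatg
2410006H16Rik, chr11:62602857-62602916 (+): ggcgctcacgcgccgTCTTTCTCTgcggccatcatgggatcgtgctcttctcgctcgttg
Snhg20, chr11:117076763-117076822 (+): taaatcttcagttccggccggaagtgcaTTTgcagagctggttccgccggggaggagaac
A run of at least 8 pyrimidines overlapped the first 10 bases in 6 of 17 starts listed for the host genes (35.3%). It did so in 5 of 26 starts of other long noncoding RNAs (19.2%) and 12 of 50 starts of all members, hosts included (24%). Among all genes in the table it did so in 2618 of 32851 starts (7.97%). The minimum of 8 was set after some of these sequences had been seen, only the transcript strand was read, and the shares are a description. Of the 6 starts, 2 belong to miRNA hosts, *Dnm3os* with 16 pyrimidines and *Mir100hg* with 10. The others are those of the snoRNA hosts *Snhg1*, *Snhg12* and *2410006H16Rik* with 9 each and *Snhg16* with 8. In *Snhg1*, *Mir100hg* and *Snhg16* the run begins only at base 5, 7 and 8 of the transcript. Short runs were found in *Snhg3* (5), *Dancr* (4), *Taf1d* (4) and *Snhg20* (3).

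Per kilobase of transcript the members spanned a wide range of levels. The highest was *Rn28s1*, the 28S ribosomal RNA, at 46265 normalized counts per kilobase on average, and the lowest was the noncoding record of *Bmp1*, a metalloprotease gene, at 16.7. The median of the 90 members was 201, against 372 for 9143 coding (NM_) records that reached the same read minimum. After *Rn28s1* came *Rps4l*, a pseudogene of a ribosomal protein gene, at 7145 ± 817 (SD, n = 8 clones), and *Snhg1* at 5046 ± 753 per kilobase. These neighbours in the order were separated by more than their SDs. The snoRNA host *2410006H16Rik* followed at 3453 ± 1210, *Neat1* at 2783 ± 268 and *Malat1* at 2368 ± 402 per kilobase, and the levels of these neighbours overlapped within their SDs. By class the median per kilobase was 518 for host genes, 157 for other long noncoding RNAs and 201 for pseudogenes.

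**Figure D1:**
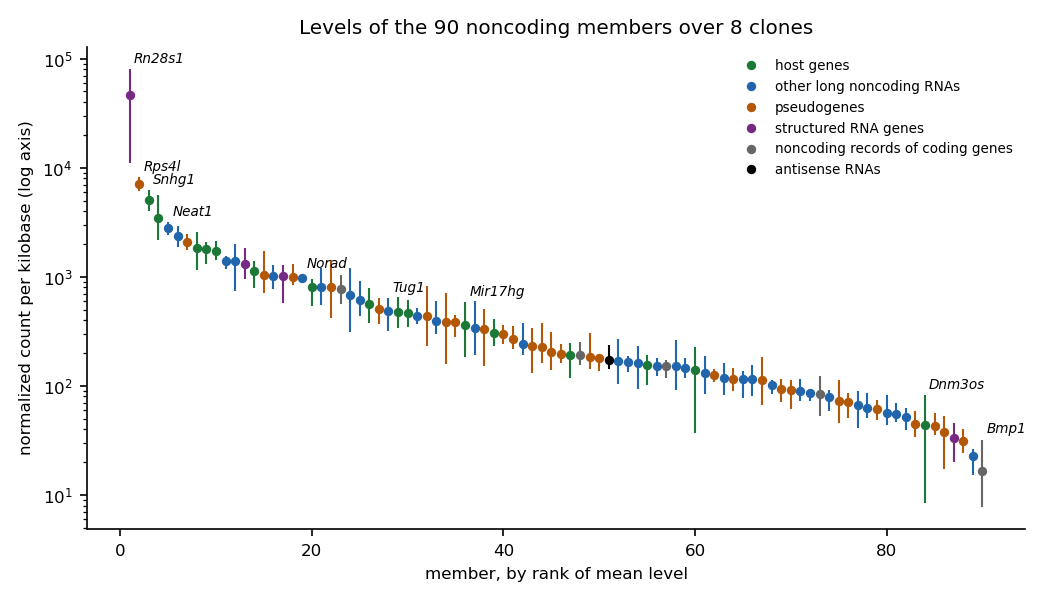
Mean normalized count per kilobase over 8 clones (points, log axis) for the 90 members by rank, with lines from the lowest to the highest clone and colours for the classes. *Rn28s1* stands at 46265, *Rps4l* at 7145 and *Bmp1* at 16.7, and the long lines belong to *Rn28s1*, *Dnm3os* and *Mir100hg*.

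The members also differed in how much they varied between clones. The highest clone was less than 2-fold above the lowest in 54 of 90 members (60%), against 75.4% of the coding records with the same minimum. *Norad*, a long noncoding RNA that binds PUMILIO proteins, was the steadiest, with 4310 to 5160 normalized counts and a 1.20-fold range. *Neat1*, an RNA found in paraspeckles and counted here on a record of 3177 bases, ran from 7730 to 10138. At the other end *Dnm3os*, which carries miR-199a and miR-214, had a 9.64-fold range, *Rn28s1* a 7.33-fold range and *Mir100hg* a 6.18-fold range. When the spread of each member's log2 values over the 8 clones was divided into parts, the clone series took a median of 28.5% and genotype 12.5%, against 28% and 19.3% in the coding records. The series took the largest part in 40 members and genotype in 15, while the spread between clones of 1 genotype and series took it in 23.

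No member was called between TKO and Ctrl iPSCs when only genotype was in the model. In edgeR's quasi-likelihood test across 16235 records, 0 of 90 had an adjusted p under 0.05, where 0.24% of all tested records did. At an unadjusted p under 0.05 there were 11 members (12.2%), fewer in proportion than among all tested records (14.8%) or the coding records with the same read minimum (17.6%). DESeq2 called 5 members, and 465 of all 16235 records (2.86%), while limma-voom called 0 members and 41 records. On the log2 scale 45 members were above and 45 below 0, and the changes ran from -0.60 to 1.18.

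When the model also held the clone series, 7 members were called, 5 higher and 2 lower in TKO iPSCs. That is 7.78% of the members, against 5.7% of all tested records and 7.65% of the coding records with the same read minimum. None of the 7 differed by as much as 2.5-fold. They are the pseudogene *Rps15a-ps6*, the long noncoding RNAs *D7Ertd143e* and *2410018L13Rik*, the snoRNA record *Snord123* and the host gene *Snhg7* among the higher ones, and the host gene *Snhg6* and the pseudogene *Thap6* among the lower ones.

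*Rps15a-ps6*, named as a pseudogene of the ribosomal protein gene *Rps15a*, had 195, 190, 248 and 249 normalized counts in Ctrl 33, 34, 41 and 43, and 355, 463, 519 and 677 in TKO 35, 37, 47 and 48. Every TKO clone was above every Ctrl clone. The fitted change was 1.18 ± 0.14 (SE, adjusted p = 0.00445, edgeR with the series), and it was past the threshold within the thirties (1.09, adjusted p = 0.0129) and within the forties (1.27, adjusted p = 0.0219). The exact permutation test gave p = 0.0286, the smallest it can give with 4 clones against 4. The coding *Rps15a* record had 8137 ± 115 in Ctrl and 10048 ± 1169 in TKO clones (SD, n = 4), a change of 0.30 that was not called (adjusted p = 0.0752). It is not stated which record received a read that matched both, so the count of the pseudogene is uncertain. Without the series in the model the change was 1.18 and not called (adjusted p = 0.0688).

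*D7Ertd143e*, a long noncoding RNA, had 1861, 3120, 1722 and 1656 counts in the Ctrl clones and 3676, 4130, 4104 and 4423 in the TKO clones. The groups did not overlap, with Ctrl 34 the nearest to the TKO clones. The change was 0.99 ± 0.18 (SE, adjusted p = 0.0196), and within the series it was 0.64 in the thirties (adjusted p = 0.0635) and 1.34 in the forties (adjusted p = 0.0211). The difference between these changes was not called (0.70, adjusted p = 0.222). Leaving out Ctrl 41, Ctrl 43, TKO 37 or TKO 47 ended the call, with adjusted p up to 0.0753.

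*2410018L13Rik* was called with both genotype and series, as were *Rps15a-ps6* (0.47 between the series, adjusted p = 0.0466, lost whichever clone was left out, up to 0.168) and *Thap6* (0.45, adjusted p = 0.0388, lost without any clone but Ctrl 34 or Ctrl 41, up to 0.135). The counts of *2410018L13Rik* were 802 and 1063 in Ctrl 33 and 34, 529 and 439 in Ctrl 41 and 43, 1691 and 1595 in TKO 35 and 37, and 666 and 852 in TKO 47 and 48. Pooled over series the genotypes overlapped, whereas within each series the TKO clones were the higher. The change with genotype was 0.73 ± 0.13 (SE, adjusted p = 0.0179), and that of the forties against the thirties was -1.03 ± 0.13 (SE, adjusted p = 0.00152). Without Ctrl 43, TKO 35 or TKO 37 the genotype call was lost (adjusted p up to 0.086). In mm9 the gene lies on chromosome 12 from 22990656 to 23046943.

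*Snord123* is named for a box C/D snoRNA, but its record is 6161 bases long, far longer than such an RNA. It had 179, 154, 123 and 158 counts in Ctrl clones and 263, 280, 258 and 210 in TKO clones, with no overlap (0.73 ± 0.15, SE, adjusted p = 0.0284). *Snhg7*, host of *Snora17* and *Snora43*, had 257, 269, 319 and 307 in Ctrl and 502, 467, 408 and 368 in TKO clones, again with no overlap (0.59 ± 0.14, SE, adjusted p = 0.0459). *Snhg6*, another snoRNA host, was the lower in TKO cells, with 872, 752, 1053 and 947 in Ctrl and 646, 673, 609 and 469 in TKO clones (-0.60 ± 0.15, SE, adjusted p = 0.0477). *Thap6*, classed as a pseudogene in the reference table, had 265, 281, 332 and 415 in Ctrl and 168, 192, 258 and 236 in TKO clones (-0.60 ± 0.13, SE, adjusted p = 0.034). For both, every TKO clone lay below every Ctrl clone. The calls of *Snord123* and *Thap6* were lost without Ctrl 41, Ctrl 43, TKO 35, TKO 37 or TKO 47 (adjusted p up to 0.105 and 0.132). That of *Snhg7* was lost without any clone but TKO 48 (up to 0.159), and that of *Snhg6* without any but Ctrl 34 (up to 0.123).

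**Figure D2:**
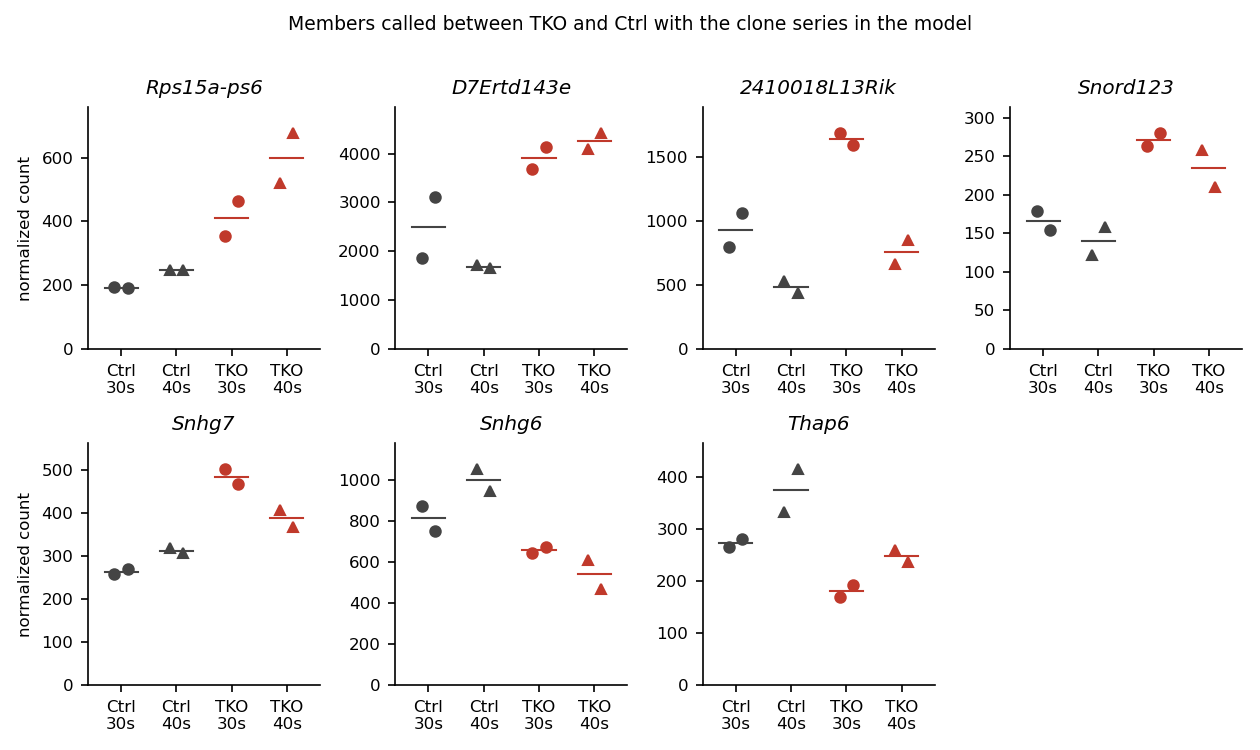
Normalized counts of the 7 members called between TKO and Ctrl with the series in the model, for each clone (circles thirties, triangles forties, dark grey Ctrl, red TKO), with lines at the means of 2 clones. All TKO points lie above all Ctrl points for *Rps15a-ps6*, *D7Ertd143e*, *Snord123* and *Snhg7*, and below them for *Snhg6* and *Thap6*, while *2410018L13Rik* separates only within a series.

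The 4 TKO and the 4 Ctrl clones did not overlap in 10 members (11.1%), 7 higher and 3 lower in TKO, against 8.33% of all tested records. Besides 6 of the called members these were *AA465934*, *Gm8234*, *Tmem181b-ps* and *AA388235*, and none of the last 4 was called. *AA465934*, an uncharacterized noncoding RNA, had 214 to 280 in Ctrl and 294 to 464 in TKO clones (0.50, adjusted p = 0.0701). These 4 were named after their values had been seen. Most calls with the series in the model were lost in several of the fits that left out 1 clone. The changes kept their sign in these fits, as in *Snhg7* (0.52 to 0.68) and *Snhg6* (-0.71 to -0.46). Only *Rps15a-ps6* stayed under the threshold whichever clone was left out, and the highest adjusted p it then reached was 0.0301. The count of 7 fell to 2 without Ctrl 41, to 1 without Ctrl 43, to 2 without TKO 35, to 1 without TKO 37 and to 2 without TKO 47. The calls over all records fell as well, from 926 to 251, 176, 94, 93 and 191 in the same order.

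The clone series separated more members than genotype did. Between the forties and the thirties 26 members were called, 16 higher and 10 lower in the forties. This is 28.9% of the members, against 19.4% of all tested records and 22.2% of the coding records with the same read minimum. The median change over the 90 was 0.12, where that of all tested records was 0.00, and 4 of the 26 differed by at least 2.5-fold. By class the called members were 5 of 16 host genes, 9 of 34 other long noncoding RNAs, 9 of 30 pseudogenes, 2 of 4 structured RNA genes and 1 of 5 noncoding records of coding genes. The 4 forties and the 4 thirties clones did not overlap in 24 members (26.7%), against 16.1% of all tested records. The count of 26 fell to 12 without TKO 35, to 16 without TKO 37 and to 17 without Ctrl 43, where the calls over all records fell from 3149 to 1296, 1405 and 2061. Of the 26, 12 kept their call whichever clone was left out.

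*Mir17hg*, host of the miR-17-92 cluster, had the smallest adjusted p between the series. It had 528 and 528 counts in Ctrl 33 and 34, 1373 and 1261 in Ctrl 41 and 43, 439 and 431 in TKO 35 and 37, and 1080 and 1087 in TKO 47 and 48. The series did not overlap, and the change was 1.32 ± 0.09 (SE, adjusted p = 7.86e-05), a 2.49-fold difference. It was 1.32 within Ctrl and 1.32 within TKO clones. Between the genotypes the change was -0.28 in the thirties (adjusted p = 0.147) and -0.28 in the forties (adjusted p = 0.205), and neither was called. In mm9 the gene lies on chromosome 14 from 115442101 to 115445949 and holds the annotated hairpins of miR-17, 18, 19a, 20a, 19b-1 and 92-1.

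*Dnm3os* and *Mir100hg* were also higher in the forties. *Dnm3os*, an RNA antisense to *Dnm3* that carries miR-199a-2 and miR-214, had 271 and 238 in Ctrl 33 and 34, 438 and 649 in Ctrl 41 and 43, 67.3 and 89.3 in TKO 35 and 37, and 479 and 575 in TKO 47 and 48 (1.93 ± 0.32, SE, adjusted p = 0.00472). *Mir100hg* had 298 and 256, 517 and 586, 95.6 and 114, and 449 and 591 in the same order (1.66 ± 0.26, SE, adjusted p = 0.00341). TKO 35 and TKO 37 were the lowest clones for both genes. Within the thirties TKO clones were therefore below Ctrl clones (-1.69, adjusted p = 0.00625, and -1.39, adjusted p = 0.00616), and within the forties they were not called (-0.05 and -0.08). The interaction was not called for either gene (adjusted p = 0.0513 for *Dnm3os* and 0.0555 for *Mir100hg*).

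Markers of fibroblasts were read beside these host genes. Of 10 markers 3 were called higher in the forties (*S100a4*, 1.57, *Prrx1*, 1.38, and *Twist1*, 0.73) and none lower, where 19.4% of all tested records were called. An interaction was called for 5 of the markers, against 1.3% of all tested records. Its direction was that of the uncalled interactions of *Dnm3os* and *Mir100hg*. Over all 16 host genes the interaction was positive in 4 and negative in 12. *Prrx1*, a mesenchymal transcription factor gene, had 52.1 and 40.1 counts in TKO 35 and 37 and 145 to 309.7 in the other clones, while *Col1a1* was highest in Ctrl 33 (25806) and lowest in Ctrl 43 (5079). All 10 markers were detected in every clone. Their part in the values of *Dnm3os* and *Mir100hg* was not tested, and in RNA from whole cultures fewer cells of a type and less RNA per cell cannot be told apart.

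**Figure D3:**
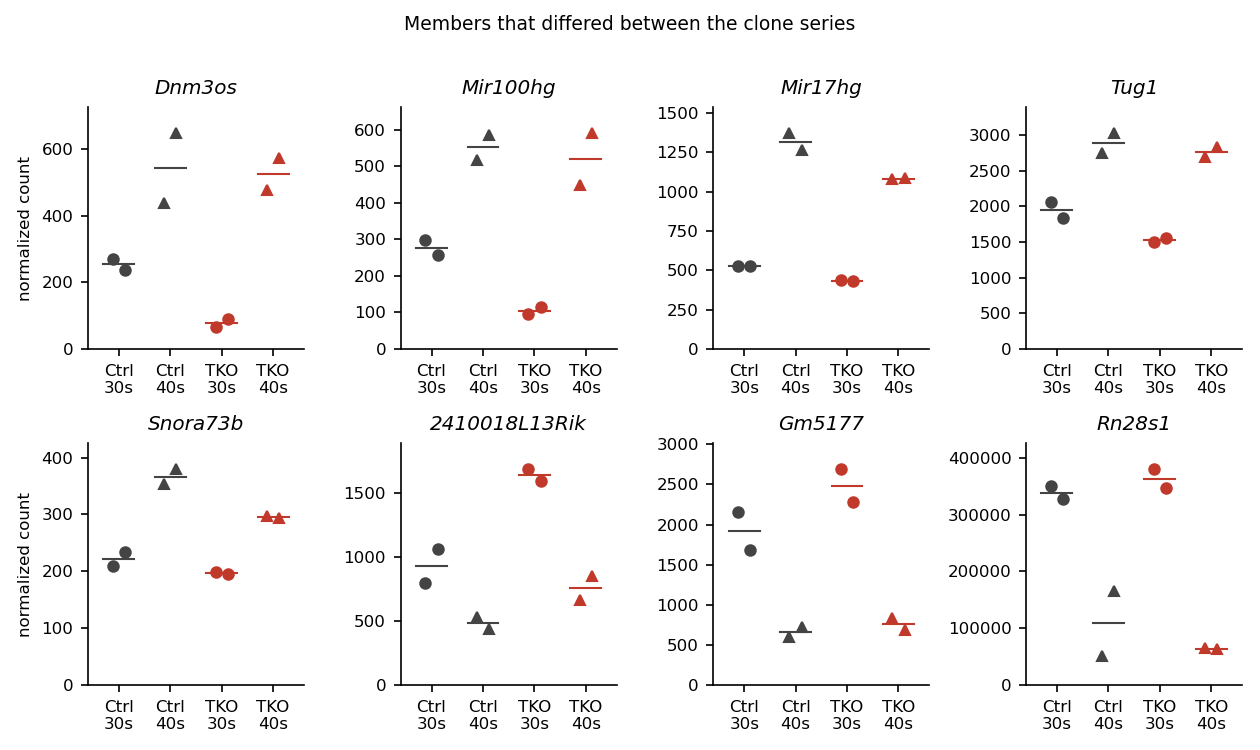
Normalized counts per clone of 8 members called between the clone series (circles thirties, triangles forties, dark grey Ctrl, red TKO), with lines at the means of 2 clones. *Dnm3os*, *Mir100hg*, *Mir17hg*, *Tug1* and *Snora73b* were higher in the forties, and *2410018L13Rik*, *Gm5177* and *Rn28s1* lower, with Ctrl 43 at 164978 for *Rn28s1*.

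Among the long noncoding RNAs higher in the forties were *Tug1*, *Malat1*, *Gm14403* and *D930048N14Rik*. The record NR_002321 of *Tug1*, a nuclear RNA, had 2053, 1842, 2750 and 3028 in Ctrl and 1499, 1556, 2687 and 2833 in TKO clones (0.71 ± 0.09, SE, adjusted p = 0.00157). All forties clones lay above all thirties clones. Its other record, NR_002322, had 264 to 521 counts and was not called (0.35, adjusted p = 0.0977). *Malat1* had 13048, 15988, 16526 and 19082 in Ctrl and 13720, 14165, 20299 and 19447 in TKO clones (0.40 ± 0.09, SE, adjusted p = 0.0159), with no overlap between the series. *Neat1*, its neighbour on chromosome 19, was not called (-0.07, adjusted p = 0.642). *Gm14403* rose by 0.75 (adjusted p = 0.00381) and *D930048N14Rik* by 0.69 (adjusted p = 0.0193). The call of *Malat1* was lost without TKO 35, TKO 37 or TKO 47 (adjusted p up to 0.0693), and that of *D930048N14Rik* without Ctrl 43, TKO 35 or TKO 47 (up to 0.0739).

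The largest falls in the forties were in *Rn28s1* and *Gm5177*. *Rn28s1* had 350127, 327960, 51916 and 164978 in Ctrl and 380642, 346602, 64876 and 63570 in TKO clones (-2.07 ± 0.31, SE, adjusted p = 0.00306). It made up 1.32 to 1.49% of reads in the thirties and 0.208 to 0.656% in the forties libraries. The 28S RNA has no poly(A) tail, and the share that a library keeps depends on how the RNA was selected, so its count is not the amount in the cell. *Gm5177*, a pseudogene, had 2153, 1679, 595 and 728 in Ctrl and 2693, 2280, 830 and 687 in TKO clones (-1.62 ± 0.13, SE, adjusted p = 0.000179), with every forties clone below every thirties clone. The change was -1.53 within Ctrl and -1.71 within TKO clones.

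Other members lower in the forties were *2900041M22Rik* (-0.81, adjusted p = 0.0231), *E330020D12Rik* (-0.78, adjusted p = 0.00845) and the snoRNA host *2410006H16Rik* (-0.78, adjusted p = 0.00651). *2410006H16Rik*, which holds *Snord49a*, *Snord49b* and *Snord65*, had 1555, 1767, 1239 and 1013 in Ctrl and 2566, 2190, 1396 and 1008 in TKO clones. The series did not overlap. The pseudogenes *6820431F20Rik* (-0.34, adjusted p = 0.0137) and *2610005L07Rik* (-0.42, adjusted p = 0.0164) were lower too, but their mm9 spans overlap on chromosome 8, so these calls are not independent. Both were lost without TKO 35 or TKO 37, that of *2610005L07Rik* also without TKO 47 (adjusted p up to 0.0558 and 0.0736), and the call of *2900041M22Rik* was lost without Ctrl 41, Ctrl 43 or TKO 35 (up to 0.0678).

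Among pseudogenes higher in the forties, *Gm3002* had 767, 1089, 1635 and 1619 in Ctrl and 757, 743, 972 and 1093 in TKO clones (0.63 ± 0.13, SE, adjusted p = 0.00966). The highest thirties clone, Ctrl 34, lay above TKO 47, so the series overlapped. *Smarca5-ps*, a copy of the chromatin remodeller gene *Smarca5*, had 65.1 and 70.9 counts in TKO 35 and 37 and 122 to 201 in the other clones. It was lower in TKO clones of the thirties (-1.16, adjusted p = 0.0335) and not called in the forties (-0.02), and the coding *Smarca5* record changed by -0.17 and -0.20 in these comparisons. *Rps4l*, the most abundant pseudogene per kilobase, had 5748 to 7763 counts and was not called with genotype or series (0.03 and 0.02), and neither was the coding *Rps4x* record (0.22 and 0.04). *Gm4759* had 7246 and 7931 in TKO 35 and 37, 24750 in TKO 48 and 12306 to 16583 in the other clones, and its call within the thirties (-0.93, adjusted p = 0.0369) stood beside a change of 0.48 in the forties (adjusted p = 0.298).

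*Snora73b* is an H/ACA snoRNA of 205 bases that lies inside the host gene *Snhg3*, and both are members. It is printed because the snoRNA and its host were both counted, with the ACA box, 3 bases from the end, in capitals (mm9, chr4:131908237-131908441, minus strand).
Snora73b: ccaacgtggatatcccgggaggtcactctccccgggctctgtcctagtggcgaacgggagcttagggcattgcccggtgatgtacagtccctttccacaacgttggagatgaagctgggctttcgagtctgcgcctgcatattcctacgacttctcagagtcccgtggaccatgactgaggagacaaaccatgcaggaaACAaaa
*Snora73b* had 209, 233, 353 and 380 in Ctrl and 198, 196, 297 and 293 in TKO clones (0.65 ± 0.12 between the series, SE, adjusted p = 0.00724), with no overlap of the series. *Snhg3* had 623, 742, 811 and 929 in Ctrl and 648, 765, 726 and 759 in TKO clones, and was not called (0.21, adjusted p = 0.233). The difference between the changes of snoRNA and host was not tested. A mature snoRNA has no poly(A) tail either, so its count also depends on how the RNA was selected, and reads of the host precursor cannot be told apart from it.

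**Figure D4:**
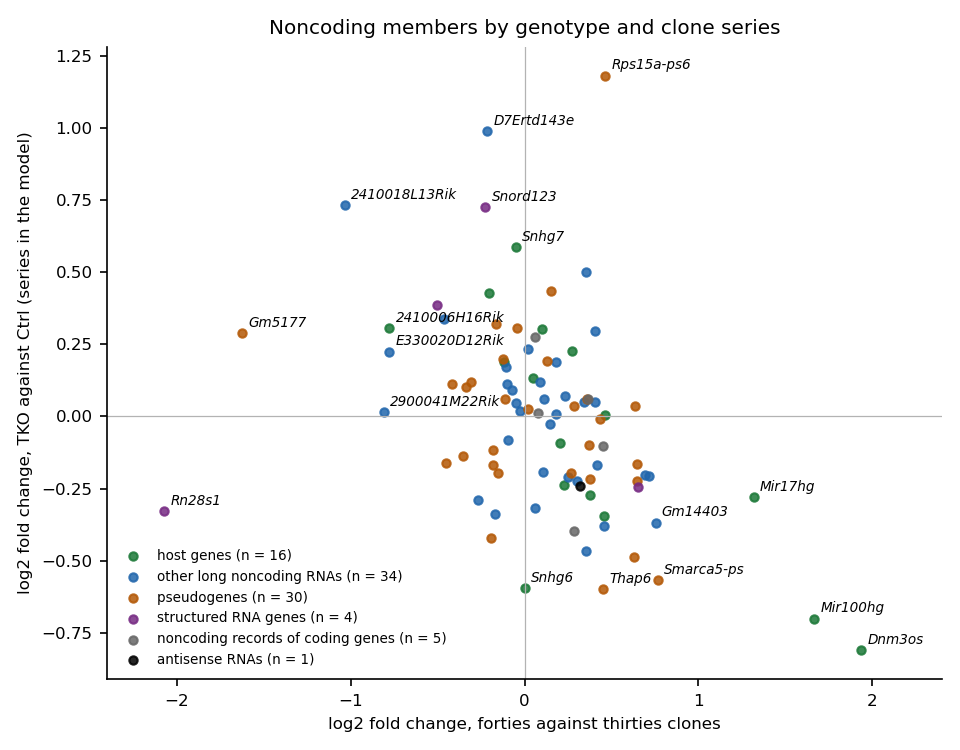
Fitted log2 fold change of each of the 90 members between the clone series (x axis, forties against thirties) and between the genotypes (y axis, TKO against Ctrl with the series in the model), coloured by class. The x axis reaches -2.07 (*Rn28s1*) and 1.93 (*Dnm3os*), and the y axis -0.81 (*Dnm3os*) and 1.18 (*Rps15a-ps6*).

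The same comparisons were made within each series, with 2 clones a group and the spread taken from all 4 groups. Within the thirties 16 members were called between TKO and Ctrl, 7 higher and 9 lower (17.8%, against 11.9% of all tested records). Within the forties 3 were called, 2 higher and 1 lower (3.33%, against 1.98%). *Rps15a-ps6* was the only member called in both. The changes of the thirties and the forties had the same sign in 51 members (56.7%), and in 62.4% of the coding records. Between the series, 13 members were called within Ctrl clones (14.4%, against 6.58% of all tested records) and 28 within TKO clones (31.1%, against 23.9%), and 9 in both.

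Of the 16 host genes 7 were called within the thirties (43.8%, against 11.9% of all tested records), among 16 calls of members. There the snoRNA hosts *Snhg7* (0.88), *1110038B12Rik* (0.59), *Snhg12* (0.50) and *Snhg1* (0.48) were higher in TKO clones, and the miRNA hosts *Dnm3os* (-1.69), *Mir100hg* (-1.39) and *Mir22hg* (-0.71) were lower. *Snhg1*, with 8 annotated snoRNAs inside it in mm9, had 2281 and 1917 in Ctrl 33 and 34, 2943 and 2919 in TKO 35 and 37, 2313 and 2428 in Ctrl 41 and 43, and 2252 and 2164 in TKO 47 and 48. The 2 TKO clones of the thirties stood above all the others. Its interaction was not called (-0.59 ± 0.15, SE, adjusted p = 0.0892). Over the 12 hosts of snoRNAs or scaRNAs the median change was 0.44 in the thirties, with 4 called higher and none lower, and -0.05 in the forties, with none called higher and 1 lower (*Snhg6*, -0.89). The median of all tested records was -0.01 and 0.01 in these comparisons, and 11.9% and 1.98% of them were called. Each comparison set 2 clones against 2, and the interaction was called for none of the host genes. *Mir22hg* had 303 and 341 in Ctrl 33 and 34 and 182 and 212 in TKO 35 and 37, while the forties clones lay between 247 and 337. Of the remaining hosts, *Dancr* was higher in the forties (359 to 442 against 471 to 632, 0.46, adjusted p = 0.0348), a call lost without Ctrl 34, 41 or 43 or TKO 35, 37 or 48 (adjusted p up to 0.116). *Snhg16* was called only within TKO clones, where it was higher in the forties (0.72, adjusted p = 0.0417). *Snhg8*, *Snhg20* and *Taf1d* were called in none of the comparisons by genotype or series, pooled or within groups.

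**Figure D5:**
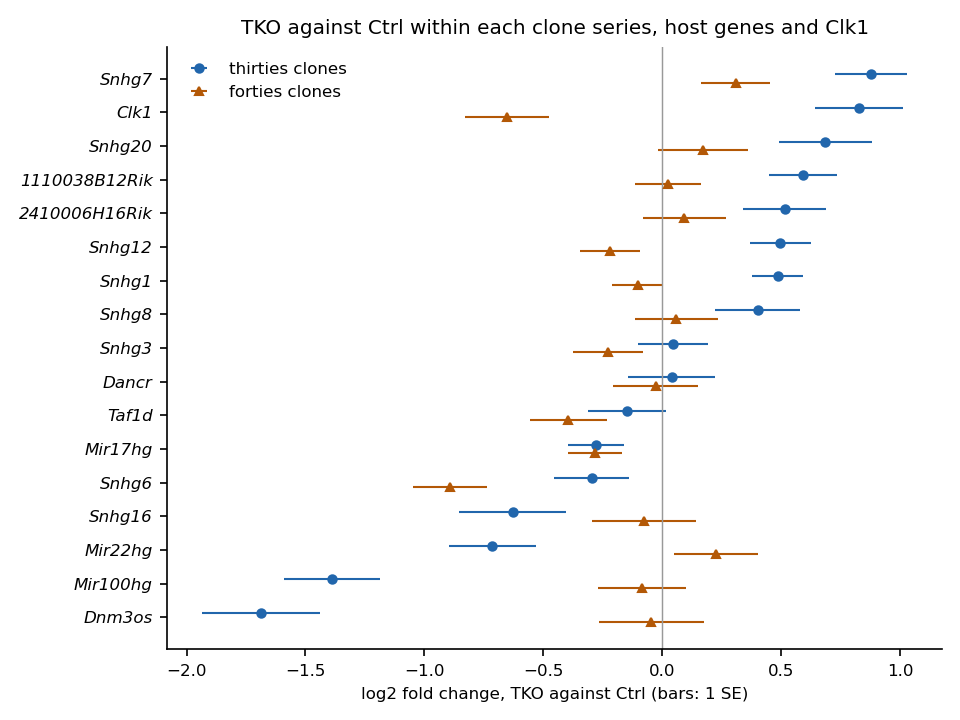
Fitted log2 fold change of TKO against Ctrl clones within the thirties (circles) and within the forties (triangles) for the 16 host genes and *Clk1*, with bars of 1 SE. The thirties values run from -1.69 (*Dnm3os*) to 0.88 (*Snhg7*), and those of the forties from -0.89 (*Snhg6*) to 0.31 (*Snhg7*).

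One member had a called interaction of genotype and series (1.11%, against 1.3% of all tested records). It was the noncoding record of *Clk1*, a kinase that phosphorylates splicing factors of the SR family. Normalized counts were 163 and 166 for Ctrl 33 and 34, 316 and 267 in TKO 35 and 37, 342 and 384 in Ctrl 41 and 43, and 210 and 251 in TKO 47 and 48. TKO clones were thus the higher in the thirties (0.83 ± 0.19, SE, adjusted p = 0.0241), and the forties change was not called (-0.65 ± 0.18, SE, adjusted p = 0.0902). The difference was -1.48 ± 0.26 (SE, adjusted p = 0.0383), and it was lost without Ctrl 41, Ctrl 43, TKO 35, TKO 37 or TKO 48, where the highest adjusted p was 0.239. The number of members with a called interaction was then 0, and it was 6 without Ctrl 34 or TKO 47 and 13 without Ctrl 33. Over all records the calls went from 211 to between 1 and 52 in the first 5 fits, and to 710, 568 and 1314 without Ctrl 34, TKO 47 and Ctrl 33. The coding *Clk1* record had an interaction of -1.50 that was not called (adjusted p = 0.0828), and it may share reads with the noncoding one. Noncoding records of *Srsf3* and *Srsf7*, genes for SR splicing factors, are members too. *Srsf7* was higher in the forties, with 429 to 466 counts in the thirties and 515 to 701 in the forties clones (0.45, adjusted p = 0.0256), a call lost without Ctrl 41, Ctrl 43, TKO 35, TKO 37 or TKO 48 (adjusted p up to 0.0881). The noncoding *Srsf3* record was not called (0.08, adjusted p = 0.723), whereas the coding *Srsf3* record was higher in the forties (0.78, adjusted p = 0.00274), as was 1 of 3 coding *Srsf7* records (0.73, adjusted p = 0.021).

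Distances to the targeted genes could be taken only for the 68 members with mm9 coordinates. Of these, the members within 10 Mb of a targeted gene were not called with genotype over all clones. They include *Fbxl12os*, *4933404O12Rik* (adjusted p = 0.0818, edgeR with the series) and *Gm10845*, at 5.87, 8.13 and 9.43 Mb. *Bmp1*, which lies 45.5 kb from *Mili* on chromosome 14, had 144, 73.4, 60.2 and 59.1 in Ctrl and 34.5, 41.0, 98.2 and 87.2 in TKO clones (-0.40, adjusted p = 0.591). The genotypes overlapped, and within the thirties the change was called (-1.47, adjusted p = 0.0221). *Taf1d*, a snoRNA host and a gene for a transcription factor of RNA polymerase I, lies 565 kb from *Miwi2* on chromosome 9 and changed by -0.27 (adjusted p = 0.209).

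Coding genes of pathways that act on host transcripts were looked at beside them. Of 10 genes for proteins that bind snoRNAs or build ribosomes, such as *Fbl* and *Dkc1*, 0 were higher and 1 was lower in TKO cells with the series in the model, and 5 were higher and 0 lower in the forties. Of 8 nonsense-mediated decay genes none was called with genotype and 1 was lower in the forties. Of 8 coding genes with 5′ terminal oligopyrimidine starts, such as *Eef1a1* and *Rack1*, none was called with genotype and 2 were lower in the forties. Over all tested records 5.7% were called with genotype, with the series in the model, and 19.4% between the series. Counts were low for *Tpt1* in the last list (4.32 to 21.7 normalized) and for *Upf1* among the decay genes (35.1 to 66.5).

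At the edge of the read minimum, *Pisd-ps1* (50 reads in its lowest library), *Gm10941* (51) and *Bmp1* (51) were the last members inside, and *Snord22* (49), *Snora81* (47) and *Gpr137b-ps* (46) the first outside. The lowest library was Ctrl 34 for *Bmp1* and Ctrl 33 for the others.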

How the data were processed

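RNA from 8 iPSC clones was read as TruSeq libraries, single-end. The authors mapped reads with BWA (0.7.5a in the submitters' processing notes) to mm9 transcript sequences, and the deposited table gives whole-number counts per RefSeq record, neither scaled nor filtered. How a read was assigned to records, also where it matched several, and whether strand was used are not given in the sources used here. Symbols and the printed miRNAs and gene starts came from RefSeq tables (GRCm38.p6), other coordinates from an mm9 annotation, and the symbol of the *Miwi2* record from the study.

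The 16235 records that reached 5 reads in 4 or more libraries were scaled by median-ratio size factors (0.369 to 2.07) and tested with edgeR 4.0.16 (glmQLFit, not robust, R 4.3.3) for genotype, for genotype and clone series, and for 4 groups of both. Adjusted p-values are Benjamini-Hochberg values over all tested records, and a call is an adjusted p under 0.05. Exact permutation tests used log2(normalized count + 1) over 70 arrangements, two-sided. Alternatives were TMM, no filter, 10 reads in every library, DESeq2 1.42.0, limma-voom (limma 3.58.1), members with 100 reads in every library and leaving out each clone. Counting precision follows from 50 or more reads per member and library.

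Members and lists were chosen with earlier results of these data known. Named members were the 4 highest of each class, all host genes, well-known long noncoding RNAs, those called with genotype or interaction, the 6 largest series changes each way, and the 3 on each side of the read minimum. Partner and marker genes were named beside them, as were some called members outside this rule.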

Additional observations from a re-analysis of the deposited data

Results flagged for a closer look

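Of 80 groups of 4 clones checked over 40 named members, 2 held a clone apart from the others by Dixon's criterion, and chance alone gives about 1 in 20 groups. In the Ctrl clones *D7Ertd143e* had 3120 normalized counts in Ctrl 34 against 1656 to 1861 in the others. The pseudogene *4933409K07Rik* had 7901 in Ctrl 34 against 4453 to 4768 in the others. The TKO change of the noncoding *Clk1* record differed between the clone series, with the forties change minus the thirties change at -1.48 (edgeR interaction, adjusted p = 0.0383).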

How the results depend on the processing

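No paired analysis was possible because no Ctrl clone shares its number with a TKO clone and the labels pair none of them. Between TKO and Ctrl 0 members were called by edgeR, also with TMM scaling, no filter, 10 reads in every library or limma-voom, against 5 with DESeq2 (2.86% of all records) and 0 to 1 when each clone was left out (1 without Ctrl 34). The 7 genotype calls made with the series in the model became 14 with DESeq2 (which called 12.6% of all records), 3 among members with 100 reads in every library, and 1 to 9 when each clone was left out. Between the series the 26 calls became 12 to 29 when each clone was left out, and stayed within 22 to 32 otherwise. The 1 called interaction became 6 with no filter, 2 with 10 reads in every library and 9 with DESeq2 (5.01% of all records). It became 3 with the 28 records set aside for want of a symbol or chromosome, an alternative added after seeing the data. When each clone was left out it was 0 to 13. The cause of these shifts was not tested, beyond there being fewer libraries or members. The small TKO changes of some members turned direction. *Dancr* was at 0.003773 with the series in the model, 0.001058 with TMM scaling and -0.1706 to 0.09703 when each clone was left out. In the same way *Malat1* ran from -0.03458 to 0.1551, *Norad* from -0.02773 to 0.06009, *Pvt1* from -0.1029 to 0.1497, *Gm4759* from -0.551 to 0.1326, *Rps4l* from -0.03424 to 0.1084 and *Rn28s1* from -0.4996 to 0.2376. Of 551 values of single members under an alternative, 504 kept direction and side of the threshold. Ctrl 33, the shallowest library, held the lowest raw count of 86 members. Without it the genotype calls over all records, with the series in the model, went from 926 to 928.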

Other observations

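The 28 noncoding records with the read minimum that were set aside, because the annotation used gave no symbol or chromosome, had no call between TKO and Ctrl in edgeR's test. This held with and without the clone series in the model, where 5.7% and 0.24% of all tested records were called. Between the clone series 6 of them were called, 4 higher and 2 lower in the forties, against 19.4% of all tested records. A called interaction was found in 2, against 1.3% of all tested records.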
